A study of Homo sapiens with 6 samples.

Results

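Genes that mark lung epithelial identity were examined in PC-9 cells, an EGFR-mutant lung adenocarcinoma cell line, with and without RBM10 knockdown (KD). The set has 9 members: the transcription factors NKX2-1, FOXA1, FOXA2, GATA6, SOX2 and TP63, and the alveolar type II products NAPSA, SFTPA1 and SFTPB. Members were found by the gene symbol that opens each isoform's gene identifier in the files, and they account for 9 of 26329 genes and 22 of 51398 isoforms. Each gene total is the sum over its isoforms.

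All libraries came from PC-9 cells, grown in RPMI with 10% FBS, from which total RNA was sequenced. The study's methods name no drug treatment for them. Each of the 3 conditions had 2 libraries: cells with shScr, the labelled control, and cells with 1 of 2 hairpins against the splicing factor RBM10, shRBM10#1 and shRBM10#2. The study's methods speak of parental PC-9 cells where the labels give shScr, and the labels were followed. The labels name neither a clone nor separate cultures, so p-values measure the spread between these libraries, which may be technical. The study asked how loss of RBM10 affects EGFR-mutant lung cancer cells, and the design sets each hairpin against shScr.

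In the lung, NKX2-1 is the master regulator of peripheral airway and alveolar epithelium, and it acts with the forkhead pioneer factors FOXA1 and FOXA2 and with GATA6 at the genes for surfactant proteins. Alveolar type II cells secrete surfactant, whose protein components include those encoded by SFTPA1 and SFTPB, and they process surfactant proteins with the aspartic protease napsin A, the product of NAPSA. SOX2 marks the proximal airway lineage, and TP63 marks basal cells. In pathology, NKX2-1 and napsin A are stained to recognise lung adenocarcinoma, and TP63 to recognise squamous carcinoma.

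Promoter sequences are shown for the 2 surfactant protein genes, which were not detected in these cells, and for 2 transcription factors, NKX2-1 and FOXA1, to display letters that forkhead and NKX2 factors are known to prefer. The sequences are RefSeq's for GRCh38.p14 and give the 250 bases before a transcription start, 5′ to 3′ on the strand of the gene. Capitals mark matches on either strand to the forkhead core, spelled TGTTTA in one form of the motif and TGTTTG in the other, and to the NKX2 core, which is spelled CTCAAG. A match on the opposite strand appears as its reverse complement, and the motifs do not overlap one another in these windows. The SFTPB window is chr2:85668200-85668449 on the minus strand, that of SFTPA1 is chr10:79610689-79610938 on the plus strand, that of NKX2-1 is chr14:36519557-36519806 on the minus strand, and that of FOXA1 is chr14:37595250-37595499 on the minus strand.
SFTPB: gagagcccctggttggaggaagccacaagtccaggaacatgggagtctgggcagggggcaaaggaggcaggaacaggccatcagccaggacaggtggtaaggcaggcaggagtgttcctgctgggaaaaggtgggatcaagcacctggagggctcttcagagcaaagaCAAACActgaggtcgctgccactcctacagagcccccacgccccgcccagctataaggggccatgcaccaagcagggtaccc
SFTPA1: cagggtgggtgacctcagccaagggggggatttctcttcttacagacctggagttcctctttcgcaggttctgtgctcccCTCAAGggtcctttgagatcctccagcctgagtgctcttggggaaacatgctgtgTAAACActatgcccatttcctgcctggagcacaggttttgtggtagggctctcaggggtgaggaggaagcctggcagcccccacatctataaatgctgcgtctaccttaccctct
NKX2-1: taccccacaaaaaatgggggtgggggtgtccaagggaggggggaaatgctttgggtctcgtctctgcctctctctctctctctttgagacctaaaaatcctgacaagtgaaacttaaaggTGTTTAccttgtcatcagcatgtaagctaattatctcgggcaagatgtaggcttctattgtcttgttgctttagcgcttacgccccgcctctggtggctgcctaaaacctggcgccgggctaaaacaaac
FOXA1: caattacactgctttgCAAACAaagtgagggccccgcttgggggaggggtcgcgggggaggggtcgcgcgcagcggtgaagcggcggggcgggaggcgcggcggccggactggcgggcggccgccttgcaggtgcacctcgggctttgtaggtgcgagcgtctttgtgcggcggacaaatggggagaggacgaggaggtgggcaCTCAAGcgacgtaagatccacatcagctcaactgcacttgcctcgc

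The forkhead match began 82 nucleotides before the start in SFTPB, 115 in SFTPA1, 130 in NKX2-1 and 234 in FOXA1. The table also holds another start of SFTPB, whose window had 0 forkhead matches, and another of NKX2-1, with a match 241 nucleotides before it. The NKX2 match began 170 nucleotides before the start in SFTPA1 and 46 in FOXA1. The RefSeq promoter table held 11 promoters of 8 members, of which 7 had a forkhead match and 3 an NKX2 match. Among all 35116 promoters of the table, 21.6% had a forkhead match and 10.4% an NKX2 match in windows of the same length. A match describes letters in the window and is not a measured binding site.

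Libraries held 31953729 to 37557507 expected counts, and TMM factors ranged from 0.979 to 1.02. RBM10 itself had 82.3 and 86.3 CPM, its count scaled to the library total, with shScr, 58.6 and 55.6 with shRBM10#1, and 27.8 and 27.4 with shRBM10#2. Its log2 fold change (FC) relative to shScr was -0.54 ± 0.0671 (SE, FDR = 2.29e-04) with shRBM10#1 and -1.65 ± 0.0702 (FDR = 5.02e-08) with shRBM10#2 (edgeR quasi-likelihood test, Benjamini-Hochberg adjustment over 14215 genes). Each hairpin thus lowered its target as labelled, to 68.6% and 31.9% of shScr. Replicates differed beyond sampling noise in every condition: chi-square over its degrees of freedom was 9.78 between the shScr replicates, 12.5 between those of shRBM10#1 and 3.24 between those of shRBM10#2.

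FOXA1 was the single abundant member in PC-9 cells, and transcripts of the surfactant protein genes SFTPA1 and SFTPB were at or near 0 in all 6 libraries. TPM, which divides by effective length and so allows levels of different genes to be compared, averaged 60.1 for FOXA1 (47.3 to 74.6 over libraries), 2.47 for GATA6 (1.61 to 3.17) and 1.21 for TP63 (0.90 to 1.39). SOX2 averaged 0.933 TPM (0.53 to 1.96), FOXA2 0.498 (0.15 to 1.08), NAPSA 0.44 (0.16 to 0.75) and NKX2-1 0.122 (0 to 0.39). FOXA1 stood above the range of GATA6, and GATA6 above that of TP63, whereas each later neighbour in the order overlapped the one before it. Among all genes listed, 91.3% had a mean TPM at or below that of FOXA1, and 44.2% at or below that of NKX2-1.

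With present defined as at least 1 TPM in every library, 2 members were present (FOXA1 and GATA6) and 5 were low (TP63, SOX2, FOXA2, NAPSA and NKX2-1). For scale, 12117 to 12328 of all 26329 genes had at least 1 TPM in a given library. SFTPA1 and SFTPB, with fewer than 3 counts in every library, were not detected. SFTPB had 2 counts in shScr replicate 1, 1 count in shRBM10#1 replicate 1 and 0 in the other 4 libraries, and SFTPA1 had 2 counts in shRBM10#2 replicate 1 and 0 in the other 5. A level of 3 counts corresponds to 0.0799 to 0.0939 CPM in these libraries, so differences between conditions were not detectable for either gene. SFTPA1 is a near-identical copy of SFTPA2, with 93.2% identity over 2153 aligned nucleotides of their GENCODE 29 transcripts, so the split of reads between them is uncertain. The sum of both was 1 and 3 counts with shScr, 7 and 4 with shRBM10#1, and 12 and 4 with shRBM10#2.

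**Figure D1:**
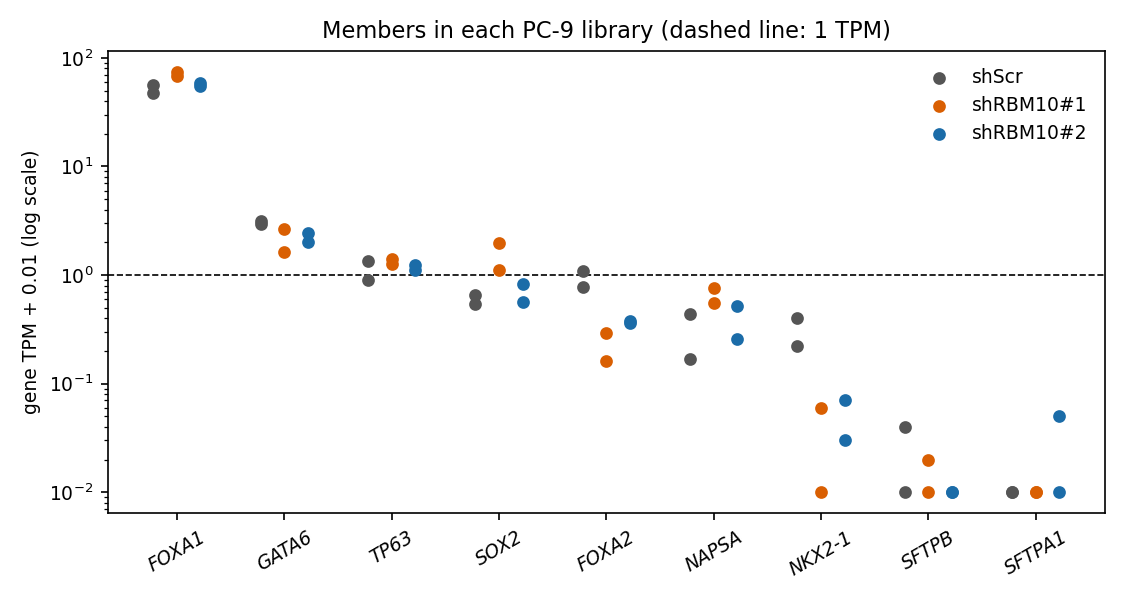
Gene TPM plus 0.01, on a log scale, of each member (horizontal axis, ordered by mean) in each library, with 2 points per condition and points at 0.01 for libraries listed at 0. FOXA1 lies between 47.3 and 74.6 TPM in every library, while the points of SFTPB and SFTPA1 lie at the bottom of the axis.

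Markers of epithelial identity fitted the labelled cell line: all 6 of a list were present, led by the keratins KRT8 (mean 9403 TPM), KRT18 and KRT19. Of 17 other alveolar type II genes, 8 were present, while 12117 to 12328 of all 26329 genes reached 1 TPM in a given library. The 8 were led by the protease gene CTSH (mean 132 TPM), the phospholipid enzyme gene LPCAT1 (96.5) and the transcription factor gene CEBPA (37.5). The defining secretory markers of that cell were low: SFTPC had at most 3 counts in any library and SFTPD at most 10. Of 11 markers of non-epithelial cells, 4 were present (CD68, CDH5, COL1A1 and PECAM1), 5 were low and 2 were not detected. DCN and LUM had at most 1 count in a library, CD3E at most 3, PTPRC at most 6 and VWF at most 42. The summed TPM of that list was 109 to 127 with shScr, 94.8 to 95.2 with shRBM10#1 and 86.5 to 88.1 with shRBM10#2, most of it from CD68 (mean 88.9 TPM), followed by CDH5 (6.98) and COL1A1 (2.48). Its part in the results that follow was not tested.

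Of the 9 members, 6 passed the filter on low counts, which asks for about 10 counts in at least 2 libraries, and were tested. With shRBM10#1, 3 of them passed an FDR of 0.05: FOXA1 and SOX2 were higher and FOXA2 was lower than with shScr. Among all genes tested, 14.1% passed the same threshold, 7.14% higher and 6.92% lower, and 1.88% also had an absolute log2 FC above 1, as did 2 of the members (SOX2 and FOXA2). With shRBM10#2, which left less RBM10, 1 member (FOXA2) passed, lower and with an absolute log2 FC above 1. The background there was 25.9% of genes, 12% higher and 13.9% lower, with 1.3% past both criteria. Fewer cells that express a gene and less RNA per cell cannot be told apart in these bulk libraries.

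FOXA1, the most abundant member, rose with shRBM10#1. It had 102 and 108 CPM with shScr, 142 and 163 with shRBM10#1, and 128 and 120 with shRBM10#2. In CPM the libraries of the 3 conditions did not overlap, shRBM10#1 being the highest, whereas in TPM those of shRBM10#2 (59.1 and 55.1) overlapped those of shScr (47.3 and 56.6). The log2 FC was 0.56 ± 0.0742 (SE) with shRBM10#1, a fold of 1.47, with FDR = 3.96e-04 in the edgeR quasi-likelihood test. With shRBM10#2 it was 0.20 ± 0.0743, which did not pass the threshold (edgeR FDR = 0.0623). The log2 FC with shRBM10#1 remained between 0.45 and 0.65 and past the threshold in each of 14 alternative analyses.

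FOXA2, a close relative of FOXA1 that binds the same core letters, fell with both hairpins. Its counts were 37 and 47 with shScr, 7 and 16 with shRBM10#1, and 20 and 20 with shRBM10#2. Every KD library was below both shScr libraries, in counts as in CPM. The log2 FC was -1.93 ± 0.398 (SE) with shRBM10#1 (edgeR FDR = 0.0064) and -1.27 ± 0.363 with shRBM10#2 (edgeR FDR = 0.0224), which correspond to 26.3% and 41.5% of the shScr level. The call with shRBM10#1 was lost without shScr replicate 2 (log2 FC -1.75, edgeR FDR = 0.063). That with shRBM10#2 was lost without any one of the 4 libraries compared, with a log2 FC of -1.42 to -1.10 and edgeR FDR = 0.0532 to 0.135.

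SOX2, the proximal airway factor, rose with shRBM10#1. It had 0.823 and 0.882 CPM with shScr, 1.66 and 3.07 with shRBM10#1, and 1.27 and 0.879 with shRBM10#2. Both shRBM10#1 libraries were above all others, with replicate 2 the highest, whereas shRBM10#2 overlapped shScr. The log2 FC with shRBM10#1 was 1.5 ± 0.338 (SE), a fold of 2.83 (edgeR FDR = 0.0106), and with shRBM10#2 it was 0.29 ± 0.367 (edgeR FDR = 0.603). Without shRBM10#1 replicate 2 the log2 FC with that hairpin was 0.98 (edgeR FDR = 0.128), and the call was also lost without either shScr replicate (edgeR FDR = 0.0712 and 0.0773).

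GATA6, an endoderm factor active in distal lung epithelium, had 7.19 and 6.82 CPM with shScr, 6.23 and 3.96 with shRBM10#1, and 4.88 and 5.94 with shRBM10#2. All 4 KD libraries were below both shScr libraries, but neither hairpin passed the threshold. Its log2 FC was -0.45 ± 0.192 (SE, edgeR FDR = 0.143) with shRBM10#1 and -0.41 ± 0.189 (edgeR FDR = 0.132) with shRBM10#2. GATA6 was past the threshold for both hairpins when genes were not filtered, with an edgeR FDR of 0.03 and 0.0397. The value with shRBM10#1 depended on its replicates: the log2 FC was -0.81 (edgeR FDR = 0.0082, past the threshold) without replicate 1 and -0.15 (edgeR FDR = 0.66) without replicate 2.

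TP63, the basal and squamous factor, had 2.77 and 3.56 CPM with shScr, 3.72 and 4.28 with shRBM10#1, and 3.75 and 3.33 with shRBM10#2. The conditions overlapped for shRBM10#2, and the log2 FC was 0.36 ± 0.182 (SE, edgeR FDR = 0.217) with shRBM10#1 (0.20 to 0.54 with 1 library left out) and 0.12 ± 0.183 (edgeR FDR = 0.666) with shRBM10#2. TP63 has 2 promoters, whose starts lie 158 kb apart in GENCODE 29, and produces TA forms with the N-terminal transactivation domain and ΔN forms without it. The 3 ΔN isoforms held 86% and 89.8% of the TP63 counts with shScr, 87.1% and 100% with shRBM10#1, and 100% and 72.8% with shRBM10#2. With 91 to 160 counts per library, the 95% Wilson interval was 77.1% to 91.5% in shScr replicate 1 and 64.4% to 79.8% in shRBM10#2 replicate 2. Such intervals cover counting error only and treat every expected count as known to be ΔN or TA. The error of dividing shared reads between isoforms is left out, so they are too narrow. The ΔN forms were thus the larger share of the expected counts in all 6 libraries, and the 2 replicates of shRBM10#2 lay farther apart than the shScr replicates did.

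**Figure D2:**
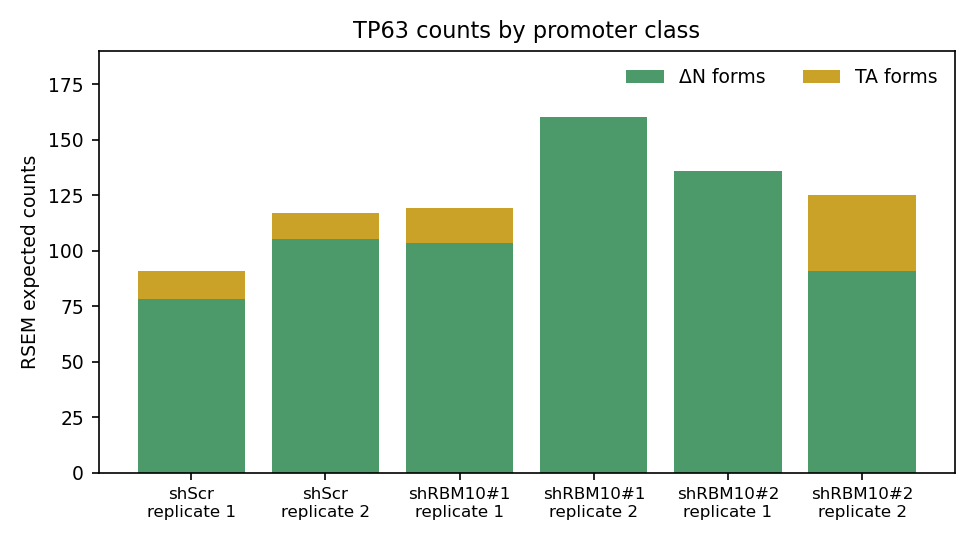
RSEM expected counts of TP63 in each library (bars), divided into the 3 ΔN and the 3 TA isoforms. Counts of TA forms are 0 in shRBM10#1 replicate 2 and shRBM10#2 replicate 1 and reach 34 in shRBM10#2 replicate 2.

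NAPSA, the napsin A gene, had 4 and 10 counts with shScr, 13 and 22 with shRBM10#1, and 7 and 15 with shRBM10#2. Both shRBM10#1 libraries exceeded the shScr libraries, and those of shRBM10#2 overlapped them. The log2 FC was 1.24 ± 0.575 (SE, edgeR FDR = 0.176) with shRBM10#1 and 0.44 ± 0.622 (edgeR FDR = 0.648) with shRBM10#2, and neither passed. With 1 library left out at a time, the log2 FC with shRBM10#1 ranged from 0.74 without shScr replicate 1 to 2.02 without shScr replicate 2. From counts alone, the CPM ratio to shScr was 2.37 (95% exact interval of counting error, 1.24 to 4.76) with shRBM10#1 and 1.4 (0.684 to 2.96) with shRBM10#2.

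NKX2-1, the lineage regulator, was too sparse for the filter, since 1 library alone reached its minimum of 0.289 CPM. It had 9 and 16 counts with shScr, 2 and 0 with shRBM10#1, and 3 and 1 with shRBM10#2. All 4 KD libraries were below both shScr libraries. Over each condition, 25 counts with shScr (0.381 CPM) stood against 2 with shRBM10#1 (0.0288 CPM) and 4 with shRBM10#2 (0.0542 CPM). The CPM ratio was 0.0758 (95% exact interval of counting error, 0.0087 to 0.304) with shRBM10#1 and 0.142 (0.036 to 0.412) with shRBM10#2. In a fit without the filter, NKX2-1 passed the threshold with each hairpin (edgeR FDR = 0.0162 and 0.0273), and the fitted fold of so few counts depends on the prior count. At a mean of 0.3 TPM with shScr, the gene was low in the control cells as well.

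**Figure D3:**
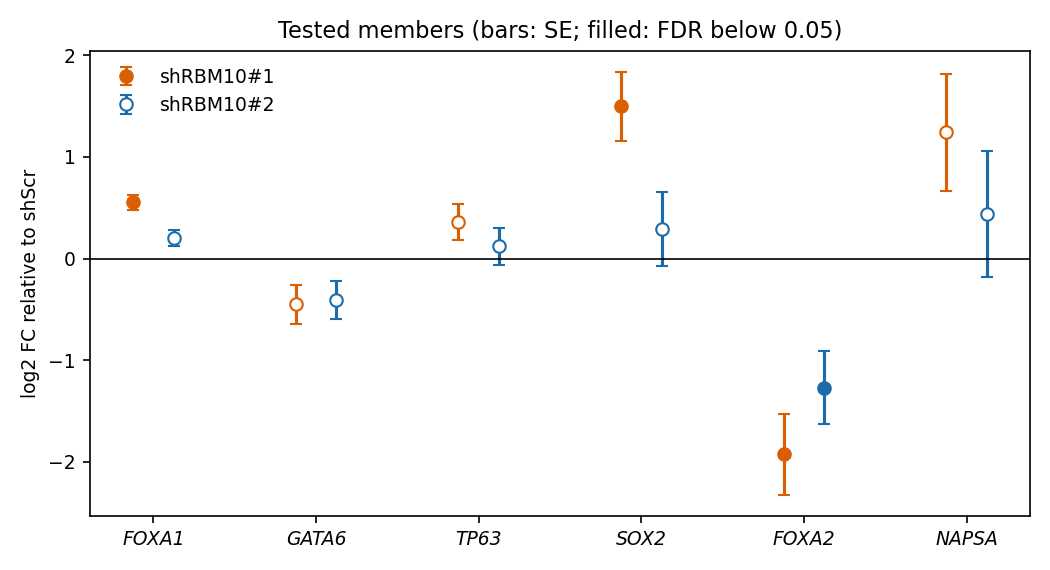
Log2 FC relative to shScr of the 6 tested members with shRBM10#1 and shRBM10#2, with bars of 1 SE and filled points for an FDR below 0.05 (edgeR). FOXA2 is below 0 and filled for both hairpins, and FOXA1 and SOX2 are filled for shRBM10#1 alone.

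The hairpins were also set against each other. Of the 6 tested members, 2 passed, against 25.5% of all genes: both were lower with shRBM10#2 than with shRBM10#1, FOXA1 with a log2 FC of -0.35 ± 0.0737 (SE, edgeR FDR = 0.0047) and SOX2 with -1.21 ± 0.321 (edgeR FDR = 0.0159). FOXA2 differed between hairpins by 0.65 ± 0.441 (edgeR FDR = 0.301), which did not pass. RBM10 was itself lower with shRBM10#2, with a log2 FC of -1.11 ± 0.0704 (edgeR FDR = 3.62e-06). Of the 2 hairpins, the one that left more RBM10 thus had the higher FOXA1 and SOX2. RBM10 was highest with shScr, however (mean 84.3 CPM, against 57.1 with shRBM10#1 and 27.6 with shRBM10#2). There FOXA1 and SOX2 had their lowest means (105 and 0.853 CPM), so neither followed RBM10 over the 3 conditions. The SOX2 call was lost without shRBM10#1 replicate 2 (log2 FC -0.69, edgeR FDR = 0.177) and without shRBM10#2 replicate 2 (-0.96, edgeR FDR = 0.15). The FOXA1 call was lost without shRBM10#2 replicate 2 (log2 FC -0.30). It was also lost with limma on log2(TPM + 1) and on log2(TPM + 0.1), and held in 10 of 13 alternative analyses.

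The methods set an RBM10 KD group against the control. With both hairpins joined in that way, 0 of the 6 tested members passed in edgeR, against 1.62% of all genes. At an unadjusted p below 0.05 there were 3 (FOXA1, FOXA2 and GATA6), against 17.2% of all genes, and DESeq2 called 1 (FOXA2). RBM10 itself did not pass in this grouping (log2 FC -0.99 ± 0.306, edgeR FDR = 0.145).

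Per isoform, 7 isoforms of the members were among 26464 tested, and 0 passed in any of the 3 contrasts between conditions (smallest edgeR FDR = 0.0833, for the single FOXA1 isoform). An unadjusted p below 0.05 was found in 6 of these 21 tests, against 18.8% of the tests of all isoforms. In that fit 8 isoforms of all genes passed with shRBM10#1 and 597 with shRBM10#2. FOXA2 counts came from 1 of its 2 isoforms in every library. Whether strand was kept is not given in the sources used here, and without it the reads of a gene and its antisense partner cannot be told apart. The antisense or overlapping neighbours NKX2-1-AS1, SOX2-OT, GATA6-AS1 and LINC00261 had at most 2 counts in a library.

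Other genes of lung epithelial programs, taken as lists by cell type, were counted in the same fit. There the median log2 FC of all genes was 0.0079 with shRBM10#1 and 0.0054 with shRBM10#2. Of all genes tested, 7.14% were called higher and 6.92% lower with shRBM10#1. With shRBM10#2 these shares were 12% and 13.9%. Among 8 tested alveolar type II genes, 4 were higher and 1 lower with shRBM10#1 (median log2 FC 0.25), and 3 were higher and 1 lower with shRBM10#2 (median 0.11). LAMP3, a lamellar body membrane protein gene, rose with both (0.51 ± 0.105 and 0.70 ± 0.103, edgeR FDR = 0.0063 and 7.06e-04), as did CTSH (0.39 and 0.31) and CEBPA (0.62 and 0.27). LPCAT1 rose by 0.48 and ETV5 fell by 0.28 with shRBM10#1, and MUC1 fell by 0.44 with shRBM10#2. LAMP3 had 3.6 and 4.05 TPM with shScr, 5.18 and 5 with shRBM10#1, and 5.99 and 5.95 with shRBM10#2, without overlap between conditions. In 6 fits that each left out 1 library, LAMP3 kept its call with both hairpins, CTSH lost it in 3 of them with shRBM10#1 (log2 FC 0.18 to 0.57) and in 4 with shRBM10#2, and CEBPA kept it with shRBM10#1 and lost it in 4 with shRBM10#2. LPCAT1 kept its call, ETV5 lost it in 5 of the 6 (-0.40 to -0.17) and MUC1 in 4.

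Airway secretory genes that passed were all higher. Over all genes tested, 7.14% were higher with shRBM10#1 and 12% with shRBM10#2. Of 6 tested genes of this list, 3 were higher and 0 lower with each hairpin, with medians of 0.61 and 0.88. They were SPDEF, a goblet cell transcription factor gene (log2 FC 2.04 ± 0.145 and 1.09 ± 0.148, edgeR FDR = 5.89e-06 and 5.17e-04), the mucin gene MUC5B (1.61 ± 0.22 and 0.90 ± 0.224) and AGR2, a disulfide isomerase gene of mucus-producing cells (0.63 ± 0.157 and 0.87 ± 0.157). SPDEF had 6.84 and 8.12 TPM with shScr, 24.3 and 33.1 with shRBM10#1, and 16.2 and 14.4 with shRBM10#2, so every KD library was above every shScr library. AGR2 had 136 and 138 TPM with shScr and 157 and 247 with shRBM10#1, where replicate 1 was close to the control, and 255 and 233 with shRBM10#2. Leaving out 1 library at a time, SPDEF kept its call with both hairpins in all 6 fits, whereas AGR2 lost it with shRBM10#1 (0.23 to 0.94) and MUC5B with shRBM10#2 (0.58 to 1.16). DESeq2 called 2 of the 3 with each hairpin, all but AGR2 with shRBM10#1 (adjusted p = 0.152) and MUC5B with shRBM10#2 (adjusted p = 0.0745). Of the 6 tested, 5 had an unadjusted p below 0.05 in edgeR with shRBM10#1 and 3 with shRBM10#2. Over all genes the shares were 28.5% and 37.9%. These counts take no account of direction, and SCGB1A1 had a lower mean CPM with shRBM10#1 (0.170) than with shScr (0.457). SCGB1A1 passed with neither hairpin and had 4 to 28 counts in a library. Its TPM was 4.07 and 3.17 with shScr, lower with shRBM10#1 (1.04 and 1.7) and higher with shRBM10#2 (6.17 and 5.67).

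Several basal and squamous genes fell. Of 10 tested genes of that list, 2 were higher and 3 lower with shRBM10#1 (median -0.30). With shRBM10#2, 1 was higher and 5 were lower (median -0.62). The shares over all genes tested were 7.14% higher and 6.92% lower with shRBM10#1, and 12% and 13.9% with shRBM10#2. KRT6A had 16 and 20 TPM with shScr, 4.27 and 1.09 with shRBM10#1, and 2.79 and 3.13 with shRBM10#2, for a log2 FC of -2.70 ± 0.323 and -2.54 ± 0.313 (edgeR FDR = 1.82e-04 and 2.91e-04). KRT6B fell by 1.56 and 1.46 on the log2 scale, and reads of KRT6A and KRT6B, which are close copies, may be split between them. TRIM29, present in squamous epithelia, fell by 0.71 and 0.51, whereas KRT15, a basal keratin gene, rose by 0.94 and 0.38. CLCA2 rose by 2.02 with shRBM10#1, and KRT5 fell by 1.80 and KRT14 fell by 3.62 with shRBM10#2. KRT6A, KRT6B and TRIM29 kept their calls with both hairpins in each fit that left out 1 library, while KRT15 with shRBM10#2 lost it in 3 of 6 and KRT5 in 2.

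The remaining lists are given in turn. Over all genes tested, 14.1% passed with shRBM10#1 and 25.9% with shRBM10#2. CEBPB, ELF3 and ETV4 (mean 352, 139 and 115 TPM) led the other epithelial and endoderm transcription factors. Of 18 tested, 3 were higher with shRBM10#1 (NFIA 0.40, CEBPB 0.25 and ETV4 0.25) and 2 lower with shRBM10#2 (GATA2 -0.30 and FOXP4 -0.25), with medians of 0.19 and 0.01. CAV1, EMP2 and RTKN2 (mean 77.7, 58.2 and 5.71 TPM) led the alveolar type I genes. Of 6 tested, EMP2 was higher (0.37) and CAV1 lower (-0.35) with shRBM10#1, and with shRBM10#2 0 passed in edgeR (2 at an unadjusted p below 0.05, and 1 in DESeq2; medians -0.19 and -0.07). The gastric and intestinal list was low throughout, led by TFF1, GATA4 and CTSE (mean 1.8, 1.46 and 0.44 TPM). Of 4 tested, CTSE was lower with shRBM10#1 (-2.69) and TFF1 with shRBM10#2 (-2.83), with medians of 0.12 and -0.63. For 5 ciliated cell genes (medians 0.37 and 0.20), led by FOXJ1, RSPH1 and MCIDAS (mean 4.39, 3.86 and 1.93 TPM), 0 passed with either hairpin in edgeR or DESeq2 (2 and 0 at an unadjusted p below 0.05). The same held for 4 neuroendocrine and tuft cell genes (medians -0.02 and 0.03, with 0 and 2 at an unadjusted p below 0.05), led by DLL3, POU2F3 and SYP (mean 2.09, 0.548 and 0.502 TPM). Of 6 epithelial identity genes (medians 0.11 and -0.09), KRT19 was higher with shRBM10#1 (0.28) and lower with shRBM10#2 (-0.28), and EPCAM was higher with shRBM10#2 (0.24). Of 5 tested markers of non-epithelial cells (medians -0.13 and -0.37), CD68 was lower with both (-0.33 and -0.42), CDH5 (0.95) and PECAM1 (0.54) were higher with shRBM10#1, and VWF (-0.96) and COL1A1 (-0.37) were lower with shRBM10#2. Of the calls in these lists, those of CTSE, CD68 and CDH5 held in each fit that left out 1 library, and the others were lost in at least 1. In those fits CAV1 ranged from -0.51 to -0.21, EMP2 from 0.25 to 0.51, CEBPB from 0.13 to 0.39 and GATA2 from -0.40 to -0.19. DESeq2 did not call PECAM1 (adjusted p = 0.123) or COL1A1 (adjusted p = 0.0783) and gave TFF1 and VWF no adjusted p.

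**Figure D4:**
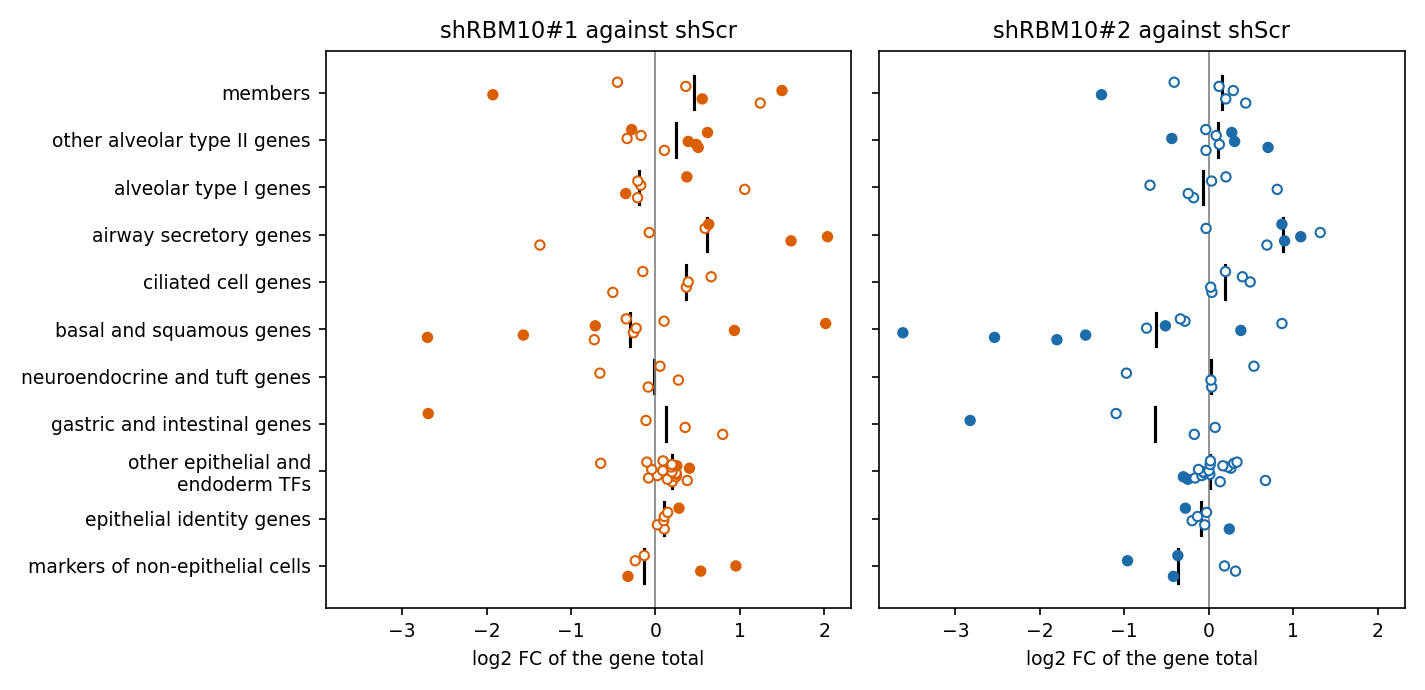
Log2 FC relative to shScr of every tested gene in each list, with shRBM10#1 at left and shRBM10#2 at right, filled points for an FDR below 0.05 (edgeR) and a black line at the list's median. The airway secretory list has 3 filled points above 0 in both panels, and the basal and squamous list extends to -2.70 and -3.62.

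The genes whose level followed that of each member most closely over the 6 libraries were found by Pearson's r of log2 CPM, as a description over libraries that share conditions and depth. They were SYT17 (r = 0.999) and ABCC4 (0.996) for FOXA1 among 9461 genes. For FOXA2 they were SERPINB8 (0.994) and P4HA2 (0.982), and for SOX2 they were SORL1 (0.996) and GRAMD2 (0.993), each among 9462 genes. GATA6 was nearest to HNRNPH3 (0.973) and TNFRSF10A (0.973), TP63 to CPD (0.990) and ATM (0.989), and NAPSA to RARS (0.981) and DFNB31 (0.979). The highest r among so many genes over 6 libraries was near 1 for every tested member, including NAPSA with 4 to 22 counts. Such maxima do not single out co-regulated genes.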

How the data were processed

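Total RNA of 6 PC-9 libraries was sequenced. Per the labels and the submitters' processing notes, STAR 2.4, RSEM 1.2.29, edgeR and genome build hg19 were used. The annotation release and strand protocol are not given in the sources used here. The authors deposited, per isoform and library, the RSEM expected count, which divides shared reads between isoforms and need not be whole, TPM, FPKM and the percent of its gene that each isoform makes up. FPKM values deposited by the authors were not used. TPM depends on effective length, and the deposited effective lengths imply a mean fragment of 231 nucleotides in shScr replicate 2 and 265 to 281 in the others, so conditions were compared in counts.

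Expected counts and TPM were summed per gene. The sums were rounded, filtered with filterByExpr by condition, scaled by TMM and fitted with edgeR 4.0.16 (glmQLFit, glmQLFTest; R 4.3.3) over all 6 libraries with 1 coefficient per condition. P-values were two-sided and adjusted over all 14215 genes by the Benjamini-Hochberg method (FDR), with a threshold of 0.05, and the methods' criterion of an absolute log2 FC above 1 was counted beside it. The study's methods compare an RBM10 KD group with a control, which was fitted as well. The procedure was tested on simulated counts. DESeq2 1.42.0, limma 3.58.1 on log2(TPM + 1) and log2(TPM + 0.1), other filters and scalings, leaving out each library and a replicate block were alternatives. Intervals are Wilson or exact binomial (95%, SciPy 1.17.1), figures used matplotlib 3.10.9, and SFTPA1 was aligned to SFTPA2 with Biopython 1.88.

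Members and gene lists were chosen with earlier results of these data known. Named beside the members were genes of a list called with both hairpins in the same direction, the 3 of each list with the highest mean TPM, SFTPA2, the antisense neighbours and for each tested member the 2 genes of at least 10 mean CPM with the highest r. List genes called with 1 hairpin, and SCGB1A1, were named after their values were seen.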

Additional observations from a re-analysis of the deposited data

Results flagged for a closer look

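The 2 hairpins were tested against each other, and the genes below differed (edgeR quasi-likelihood test, FDR below 0.05). Only the members, RBM10 and some list genes were screened for this. Those list genes had been called with both hairpins in the same direction or were among the 3 of their list with the highest mean TPM. As log2 FC of shRBM10#2 relative to shRBM10#1, the members were FOXA1 (-0.35) and SOX2 (-1.21), and the target RBM10 differed by -1.11. Lower with shRBM10#2 were the alveolar type II genes CEBPA (-0.34) and LPCAT1 (-0.36), the secretory genes MUC5B (-0.71), SPDEF (-0.95) and BPIFB1 (-0.62), and KRT15 (-0.56) and TFF1 (-2.71). ELF3 (-0.29), ETV4 (-0.24), KRT8 (-0.24), KRT19 (-0.56) and CDH5 (-0.77) were lower too, and FOXJ1 (0.54), the ciliated cell factor gene, was higher. Without RBM10, 14 of these 15 genes were lower with shRBM10#2. Of all genes that differed between the hairpins 57% were lower. The 2 shares are not comparable, because the screened genes were chosen on these data and the other list genes were not screened.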

How the results depend on the processing

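With shRBM10#1, 3 members were called, 5 of 9 without a filter (NKX2-1 and GATA6 added), and 1 to 4 when a library was left out. With shRBM10#2, 1 was called, but 0 with DESeq2 (which gave FOXA2 no adjusted p) and 0 when every library had to hold 10 counts or more (which removed FOXA2), 4 without a filter, 3 in a fit of the 2 conditions alone, and 0 to 3 with a library left out. FOXA1 and GATA6 were called with shRBM10#2 when either shRBM10#1 library was left out. Between the hairpins, 2 were called, 1 with limma on log2(TPM + 1) and 1 on log2(TPM + 0.1), 1 with an absolute log2 FC above 1, and 0 to 2 with a library left out. For the joined KD group, 0 were called, but 1 with DESeq2, 1 without a filter, 1 with limma on log2(TPM + 1) and 2 as the average of both contrasts. Direction reversed for log2 FC that were not called: NAPSA with shRBM10#2 (-0.18 to 1.22 with a library left out) was -0.06 without shScr replicate 1 and -0.18 without shRBM10#2 replicate 2, TP63 with shRBM10#2 (-0.038 to 0.30) was -0.038 without shScr replicate 1, and GATA6 between hairpins (-0.26 to 0.40) was -0.26 without shRBM10#1 replicate 2 and -0.11 without shRBM10#2 replicate 2. With present set at 0.5 TPM, 4 members were present, and 1 at 5 TPM. Of member isoform tests, 1 passed with at least 10 counts in every library. Except where a filter or fewer libraries changed what was tested, the cause was not tested.

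Over all genes, 1998, 3687, 3621 and 230 were called with shRBM10#1, with shRBM10#2, between hairpins and for the joined group. Limma on log2(TPM + 1) called 961, 1652, 1263 and 130, and on log2(TPM + 0.1) it called 990, 1743, 1358 and 148. DESeq2 called 718 for the joined group, and the average of both contrasts 2611. Leaving out a library gave 960 to 2647, 961 to 4557, 936 to 3710 and 0 to 420. An absolute log2 FC above 1 left 267, 185, 169 and 56. Libraries with the same replicate number did not deviate together over genes (correlations of -0.0041, -0.0191 and -0.0133). The labels name no batch, so whether such libraries shared a culture or preparation is not known. With the replicate block, members called were 3, 1, 2 and 0, and no call of a member changed, while the joined group had 52 calls over all genes.

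Where leaving out a library left 1 in its condition, that library was assumed to vary like the other conditions. FOXA2, SOX2, NAPSA and NKX2-1 had at most 47 counts in a shScr library, and SFTPA1 and SFTPB at most 2 in any library, which limits the precision of their values.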
